A study of Mus musculus with 12 samples.

Results

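The genes described here are 9 genes that mark megakaryocytes and platelets, chosen by symbol: Pf4, Ppbp, Gp1ba, Gp1bb, Gp5, Gp6, Gp9, Vwf and Treml1. The table of counts holds 8 of them among its 12199 genes, and Gp6 was not analysed here. All 8 were among the 12175 genes that passed the filter on low counts. RNA had been sequenced from bone marrow (BM) of C57BL/6 mice of 4 genotypes, with 3 WT, 3 DF, 3 TF and 2 TFD libraries analysed here. The labels name the source as BM mononuclear cells, whereas the study's methods describe whole BM. DF mice carried 1 floxed Dnmt3a allele with MxCre and the Flt3 ITD allele in heterozygous form (Dnmt3a+/- Flt3ITD/WT). TF mice carried Tet2+/- with Flt3ITD/WT, and their label names no MxCre. TFD mice combined Tet2+/-, Flt3ITD/WT and the floxed Dnmt3a allele with MxCre. Every mouse, WT included, had received poly(I:C) at 8 to 10 weeks of age and was analysed 8 to 9 weeks later. MxCre is driven by an interferon-responsive promoter that poly(I:C) switches on, and its activity is not limited to blood cells. The WT mice were C57BL/6 animals of a core facility and were not described as littermates. TFD replicate 3 was not analysed here.

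Megakaryocytes are the large, rare BM cells that shed platelets into the blood, and they arise close to the erythroid lineage. Their late genes encode the cargo of platelet alpha granules and the receptors that let platelets stick to a damaged vessel. PF4 and PPBP are CXC chemokines stored in alpha granules. GP1BA, GP1BB, GP5 and GP9 form the GPIb-IX-V complex, the platelet receptor for von Willebrand factor. VWF is made by megakaryocytes and also by endothelial cells, and TREML1 is a receptor held in alpha granules and brought to the surface on activation. GATA1 with its partners, and ETS factors such as FLI1, are the transcription factors known for switching on this program.

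The genes lie on 5 chromosomes of mm10 in the GENCODE M21 annotation. Ppbp (chr5:90768518-90770060) and Pf4 (chr5:90772435-90773383) are neighbors on the plus strand with 2374 bases between them. Gp1ba lies at chr11:70639122-70642055, Gp9 at chr6:87778136-87779762, Vwf at chr6:125552948-125686679 and Treml1 at chr17:48359916-48367176, all on the plus strand. Gp5 (chr16:30307685-30310781) and Gp1bb (chr16:18620319-18622403) are on the minus strand. Gp1bb overlaps Sept5 on the same strand. How the authors' counting treated reads from the shared stretch is not known, so the Gp1bb values are uncertain.

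Promoter windows from RefSeq (GRCm38.p6, the mm10 assembly), from 250 bases before to 50 bases after the start of transcription, were available for 7 of the 8 genes, with none for Vwf. The letters GATAA, as read by GATA factors, and CCGGAA and AGGAAG, as read by ETS factors, were searched on both strands. The windows of Pf4, Gp1ba and Gp5 are shown because these genes were called lower in DF, and that of Ppbp because it is the neighbor of Pf4 and was called higher in TFD. Each is printed 5′ to 3′ along the gene, with matches to the motifs in capitals. They lie at chr5:90772185-90772484 (Pf4), chr11:70638872-70639171 (Gp1ba), chr16:30310732-30311031 on the minus strand (Gp5) and chr5:90768268-90768567 (Ppbp).
Pf4: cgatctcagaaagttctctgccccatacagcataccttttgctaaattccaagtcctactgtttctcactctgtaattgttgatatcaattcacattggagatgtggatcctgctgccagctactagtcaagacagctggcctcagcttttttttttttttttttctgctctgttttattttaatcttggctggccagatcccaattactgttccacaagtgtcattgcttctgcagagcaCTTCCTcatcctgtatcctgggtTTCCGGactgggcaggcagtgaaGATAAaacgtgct
Gp1ba: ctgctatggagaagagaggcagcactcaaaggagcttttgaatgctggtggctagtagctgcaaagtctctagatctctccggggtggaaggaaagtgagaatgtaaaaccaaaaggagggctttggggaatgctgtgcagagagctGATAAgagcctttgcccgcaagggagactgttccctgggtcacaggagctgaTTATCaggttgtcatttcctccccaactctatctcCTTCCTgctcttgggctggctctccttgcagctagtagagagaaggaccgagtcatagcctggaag
Gp5: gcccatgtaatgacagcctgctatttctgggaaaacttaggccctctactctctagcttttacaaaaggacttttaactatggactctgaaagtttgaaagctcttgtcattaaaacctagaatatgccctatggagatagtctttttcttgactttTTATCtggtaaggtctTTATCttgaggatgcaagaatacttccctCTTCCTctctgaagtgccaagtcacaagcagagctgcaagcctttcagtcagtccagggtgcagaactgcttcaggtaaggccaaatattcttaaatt
Ppbp: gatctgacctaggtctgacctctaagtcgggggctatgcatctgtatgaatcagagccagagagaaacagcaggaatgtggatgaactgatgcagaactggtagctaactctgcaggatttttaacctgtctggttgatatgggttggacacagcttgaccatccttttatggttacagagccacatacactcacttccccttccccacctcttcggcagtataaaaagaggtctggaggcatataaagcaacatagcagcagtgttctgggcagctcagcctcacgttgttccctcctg
The Pf4 window held 1 match to each of the 3 motifs. The Gp1ba and Gp5 windows each held 2 matches to GATAA and 1 to AGGAAG, and the matches did not overlap. No match was found in the Ppbp or the Treml1 window. Over the 7 windows, 4 held GATAA together with CCGGAA or AGGAAG (Pf4, Gp1ba, Gp5 and Gp9), whereas 10.7% of all 32851 windows of this length did. GATAA alone was in 25.4% of all windows, AGGAAG in 35.4% and CCGGAA in 14.9%. These matches describe letters in a window and not bound sites.

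Depth limits how finely these genes can be read. Library totals ran from 8274153 to 15900904 counts over the genes in the table, and levels are given as counts per 1000000 counts of the library (CPM), with library sizes scaled by TMM. Gp1ba had between 1 and 37 counts per library and Treml1 between 2 and 44, whereas Vwf had between 117 and 650. WT replicate 3, TF replicate 3 and TFD replicate 2 had over 10000 counts of Xist, the RNA of the inactive X chromosome, and the other 8 libraries at most 538, so the mice differed in sex, and no DF library was high in Xist. The TFD libraries fell on either side of this divide, and within TFD the library and the sex cannot be told apart. In WT the library high in Xist was the highest of its genotype for 3 of the 8 genes (Ppbp, Gp1ba and Vwf), and in TF it was the lowest for 7 of the 8, all but Gp1bb. Because the RNA came from bulk BM, fewer megakaryocytes and less RNA per megakaryocyte cannot be told apart in any of the values below.

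The first comparison asked how the megakaryocyte and platelet genes stood in DF relative to WT. All 8 were lower in the mean, with a median log2 fold change of -1.14 against 0.05 over all genes tested. Pf4, Gp1ba, Gp5 and Vwf were called lower by edgeR's quasi-likelihood test at a Benjamini-Hochberg adjusted p under 0.05, and none was called higher. Over all genes tested, 16.6% were called lower in DF versus WT. For 5 genes (the same 4 and Treml1) every DF library was below every WT library, which was so for 22.5% of all genes.

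Vwf had the most counts and the smallest error. Its level was 23.1, 19.7 and 26.9 CPM in the WT libraries and 9.76, 10.6 and 11.6 CPM in the DF libraries. The genotypes did not overlap, and the spread within DF was small. The log2 fold change was -1.13 ± 0.24 (SE; edgeR adjusted p = 0.00281), or 2.19-fold lower in DF, and it stayed past the threshold with any 1 library left out.

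Pf4, the chemokine with the highest level per length, was at 17.9, 11.6 and 16.7 CPM in WT and at 6.27, 7.08 and 7.52 CPM in DF. All DF libraries lay below the lowest WT library. Its log2 fold change was -1.16 ± 0.40 (SE; edgeR adjusted p = 0.0383). Ppbp, from the neighboring gene, was at 4.35, 3.22 and 6.36 CPM in WT and at 1.83, 3.99 and 3.76 CPM in DF. Here the genotypes overlapped, and the difference of -0.55 ± 0.54 (SE; edgeR adjusted p = 0.439) did not pass the test.

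Within the GPIb-IX-V receptor, the 2 subunits called were GP1BA, which carries the binding site for von Willebrand factor, and GP5. Gp1ba was at 0.821, 0.866 and 1.70 CPM in WT and at 0.476, 0.450 and 0.099 CPM in DF, the last of these resting on 1 count. Its log2 fold change was -1.63 ± 0.54 (SE; edgeR adjusted p = 0.03). Gp5 was at 4.11, 1.49 and 3.13 CPM in WT and at 0.635, 0.965 and 1.39 CPM in DF, with a log2 fold change of -1.59 ± 0.53 (SE; edgeR adjusted p = 0.0312). In both genes the DF libraries were all below the WT libraries, and in Gp5 the highest DF and the lowest WT library were close. Gp9, whose product the complex needs to reach the cell surface, was at 1.72, 2.85 and 2.60 CPM in WT and at 1.83, 1.16 and 2.08 CPM in DF. Gp1bb, the subunit linked to GP1BA by disulfide bonds, was at 1.89, 1.11 and 1.16 CPM in WT and at 0.635, 1.03 and 1.68 CPM in DF. Neither passed the test, with log2 differences of -0.51 ± 0.41 (SE; edgeR adjusted p = 0.352) for Gp9 and -0.37 ± 0.54 (SE; edgeR adjusted p = 0.615) for Gp1bb.

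Treml1 was at 2.38, 0.866 and 1.25 CPM in WT and at 0.397, 0.644 and 0.792 CPM in DF. The genotypes did not overlap, but the log2 difference of -1.34 ± 0.63 (SE; edgeR adjusted p = 0.111) missed the threshold. Treml1 was called with only DF and WT in the fit (-1.39, edgeR adjusted p = 0.0279) and with a term for high Xist counts (-1.72, edgeR adjusted p = 0.023), where 19.7% and 15.2% of all genes were called lower. The calls of Pf4, Gp1ba and Gp5 depended on single libraries, though their log2 fold changes stayed between -1.07 and -1.32 for Pf4, -1.24 and -1.89 for Gp1ba and -1.30 and -1.89 for Gp5 with 1 DF or WT library left out. Without DF replicate 2 or without WT replicate 3, Vwf was the only gene of the 8 called. Without DF replicate 1 or WT replicate 1, Gp1ba and Vwf were called, and without DF replicate 3, Gp5 and Vwf. These fits took 1 estimate of the spread from all genotypes, TFD included. With only DF and WT in the fit, Pf4 (-1.20, edgeR adjusted p = 0.000211), Gp1ba (-1.66, 0.0248) and Gp5 (-1.65, 0.00539) were called. Limma voom called Gp1ba and Vwf (16.6% of all genes were lower by it). In a fit of only the libraries with under 10000 Xist counts, Pf4, Gp5, Vwf and Treml1 were called, with 18.5% of all genes lower.

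**Figure D1:**
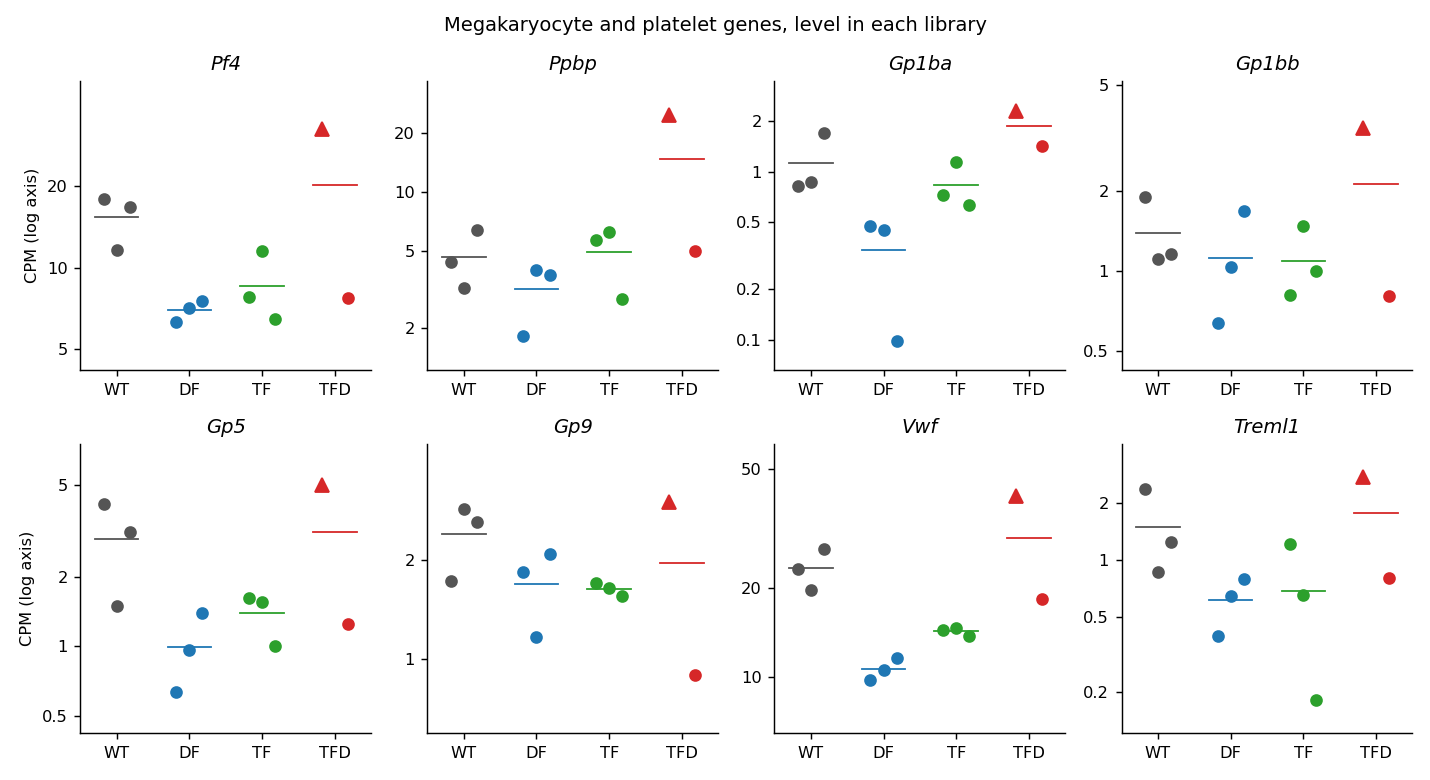
Level of each gene in each library, in CPM on a log axis, by genotype, with a horizontal line at the mean of each genotype (WT, DF and TF n = 3, TFD n = 2) and a triangle for TFD replicate 1. All 3 DF libraries lie below all 3 WT libraries for Pf4, Gp1ba, Gp5, Vwf and Treml1, and TFD replicate 1 is the highest library in all 8 panels.

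TF was then compared with WT. Here 7 of the 8 genes were lower in the mean, with a median log2 fold change of -0.62 against 0.02 over all genes. Vwf alone was called (15.6% of all genes tested were called lower in TF versus WT). Its level in TF was 14.4, 14.7 and 13.8 CPM, a tight group below all WT libraries, and the log2 fold change was -0.70 ± 0.23 (SE; edgeR adjusted p = 0.0338). This call was lost without any 1 of the TF libraries and without WT replicate 1 or WT replicate 3, with adjusted p values up to 0.111, while the log2 fold change stayed between -0.59 and -0.73. Without TFD replicate 1, which enters this comparison only through the shared estimate of spread, Pf4 was called as well (17.1% of all genes were called lower), and without TFD replicate 2 both Pf4 and Gp5 (17.3% of all genes).

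Pf4 in TF was at 7.76, 11.5 and 6.48 CPM, just below the lowest WT library at its highest, with a log2 difference of -0.85 ± 0.40 (SE; edgeR adjusted p = 0.114). Ppbp was at 5.66, 6.22 and 2.83 CPM and spanned the WT range, with a log2 difference of 0.07 ± 0.52 (SE; edgeR adjusted p = 0.93). Of the receptor genes, Gp5 was at 1.62, 1.55 and 1.0 CPM, with 1 library below all WT libraries, and its log2 difference was -1.08 ± 0.51 (SE; edgeR adjusted p = 0.115). Gp9 was close to uniform in TF, at 1.70, 1.64 and 1.55 CPM, all below the lowest WT library by a narrow margin. Gp1ba ranged from 0.638 to 1.15 CPM, Gp1bb from 0.808 to 1.47 CPM and Treml1 from 0.182 to 1.21 CPM, and all 3 overlapped with WT. Every TF library was below every WT library for 3 of the 8 genes (Pf4, Gp9 and Vwf), and this held for 22.9% of all genes.

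DF and TF were also set against each other. None of the 8 genes was called by edgeR, and DESeq2 and limma voom called none, with 5.94% of all genes tested called by edgeR in either direction. Gp1ba and Vwf were lower in every DF library than in every TF library (12.1% of all genes). The log2 difference was -1.20 ± 0.55 (SE; edgeR adjusted p = 0.258) for Gp1ba and -0.43 ± 0.24 (SE; edgeR adjusted p = 0.378) for Vwf.

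The 2 TFD libraries lay far apart in these genes and are given singly. TFD replicate 1 had the highest CPM of all 11 libraries for all 8 genes, a property of 4.35% of all genes tested. TFD replicate 2 was below every WT library for 6 of the 8 (34.7% of all genes) and within the WT range for Ppbp and Gp1ba. At least a 2-fold higher level in TFD replicate 1 than in TFD replicate 2 was seen for 7 of the 8 genes, against 3.13% of all genes, and the median ratio was 3.72 against 1.01 over all genes. These counts describe 2 libraries and carry no replicate check.

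Ppbp showed the widest gap, with 24.6 CPM (394 counts) in TFD replicate 1 and 4.99 CPM (56 counts) in TFD replicate 2. The ratio was 4.94, with a 95% interval of 3.73 to 6.66 from an exact binomial (Clopper-Pearson) interval on the counts, which covers counting error only. Pf4 was at 32.5 CPM (520 counts) and 7.75 CPM (87 counts), a ratio of 4.2 (95% interval 3.34 to 5.33). For Pf4 the highest library exceeded the lowest by 1.54-fold in WT, 1.20-fold in DF and 1.78-fold in TF, and for Ppbp by 1.98-fold, 2.19-fold and 2.20-fold. Gp1ba spread more widely in DF (4.81-fold) and Treml1 in TF (6.64-fold) than either did in TFD, both with few counts. The spread rests on 2 libraries in TFD and on 3 in each other genotype.

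Among the receptor genes, Gp1bb was at 3.44 and 0.802 CPM in TFD replicates 1 and 2, and Gp5 was at 5.0 and 1.25 CPM. Gp9 was at 3.0 and 0.891 CPM, and the latter was the lowest of all 11 libraries for this gene. These 3 ratios were 4.29 (95% interval 2.10 to 9.87), 4.01 (2.26 to 7.67) and 3.37 (1.68 to 7.47). Gp1ba differed least, at 2.31 and 1.43 CPM, and its ratio of 1.62 (95% interval 0.881 to 3.13) could not be told from 1 at this depth. Vwf was at 40.6 and 18.3 CPM, a ratio of 2.23 (95% interval 1.90 to 2.62), and Treml1 was at 2.75 and 0.802 CPM, a ratio of 3.43 (95% interval 1.65 to 8.0). The intervals of all 4 receptor subunits overlapped.

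**Figure D2:**
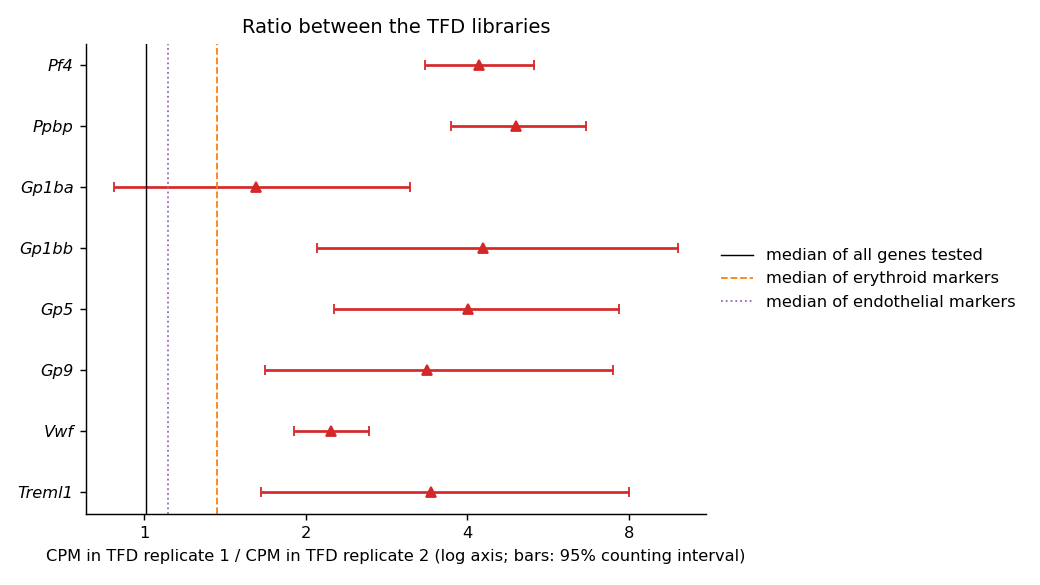
Ratio of the CPM in TFD replicate 1 to that in TFD replicate 2 for each gene, on a log axis, with 95% counting intervals. The intervals of 7 genes lie above the median ratio of all genes tested (1.01, solid line), of the erythroid markers (1.37, dashed line) and of the endothelial markers (1.11, dotted line), and that of Gp1ba (0.881 to 3.13) spans all 3 lines.

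With both libraries in the fit, Ppbp was the only gene of the 8 called in TFD versus WT, with a log2 fold change of 1.67 ± 0.53 (SE; edgeR adjusted p = 0.035), while 14.7% of all genes tested were called higher. The TFD mean was 14.8 ± 13.9 CPM (SD, n = 2), against 4.64 ± 1.59 CPM (SD, n = 3) in WT, and TFD replicate 2 was within the WT range, so the call rested on TFD replicate 1. Without TFD replicate 1 the log2 fold change of Ppbp was 0.09 ± 0.51 (SE; edgeR adjusted p = 0.926) and none of the 8 genes was called, where 10.9% of all genes were called higher and 8.52% lower. Without TFD replicate 2 it was 2.40 ± 0.41 (SE; edgeR adjusted p = 0.00273). Pf4 and Vwf were then called higher as well, with log2 fold changes of 1.07 ± 0.28 (SE; edgeR adjusted p = 0.0197) and 0.81 ± 0.18 (SE; edgeR adjusted p = 0.00913), and 12% of all genes were called higher in that fit. With a term for high Xist counts in the model Ppbp was still called (1.53 ± 0.49, edgeR adjusted p = 0.0316), and with only the libraries low in Xist, which leave TFD replicate 1 alone, Pf4, Ppbp and Vwf were called, with 11.7% of all genes higher. A fit with 1 TFD library assumes that it varied as the other genotypes did. The call of Ppbp also ended with limma voom (1.40), the replicate block (1.59), and without WT replicate 1 (1.62) or WT replicate 2 (1.49), at log2 fold changes near that of 1.67.

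The direction against WT turned with the library used for 6 of the 8 genes. Taken alone against WT, TFD replicate 2 gave log2 fold changes of -1.0 for Pf4, -0.81 for Gp1bb, -1.25 for Gp5, -1.40 for Gp9, -0.35 for Vwf and -0.94 for Treml1. TFD replicate 1 alone gave 1.07, 1.29, 0.76, 0.35, 0.81 and 0.83 for the same genes. For Ppbp and Gp1ba both libraries gave positive values, 0.09 and 2.40 for Ppbp and 0.32 and 1.02 for Gp1ba. The values of TFD replicate 2 were of the sign seen in DF for 6 genes, all but Ppbp and Gp1ba.

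**Figure D3:**
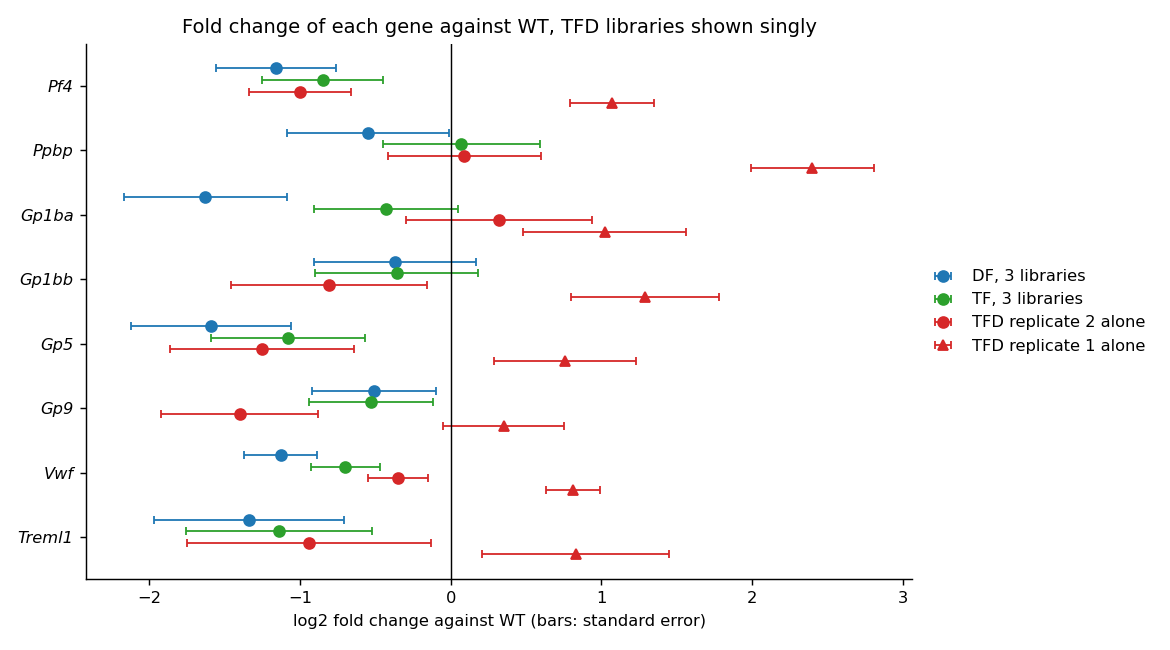
Log2 fold change of each gene against WT, with bars of 1 standard error from edgeR, for DF and TF (3 libraries each) and for each TFD library in a fit that left out the other. TFD replicate 1 (triangles) lies right of 0 for all 8 genes, from 0.35 for Gp9 to 2.40 for Ppbp, while TFD replicate 2 lies left of 0 for 6.

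Against the double mutants, all 8 genes were higher in the TFD mean, with median log2 differences of 1.57 versus DF and 1.18 versus TF. None was called by edgeR in either comparison. Over all genes, edgeR called 0.0% in TFD versus DF and 0.0164% in TFD versus TF. DESeq2 called 4 of the 8 higher in TFD versus DF (Pf4, Ppbp, Gp1ba and Vwf; 1.27% of all genes) and 1 in TFD versus TF (Vwf; 0.181% of all genes), and limma voom called none in either. With edgeR, leaving out TFD replicate 2 brought 3 calls versus DF (Pf4, Ppbp and Vwf; 0.107% of all genes were called higher) and 2 versus TF (Pf4 and Vwf; 0.0493% of all genes), and leaving out TF replicate 3 brought 3 versus DF (Ppbp, Gp1ba and Vwf; 1.43% of all genes). Vwf was also called versus DF with only those groups in the fit or with the replicate block. Both TFD libraries were above all 3 DF libraries for 5 of the 8 genes (Pf4, Ppbp, Gp1ba, Vwf and Treml1; 14.1% of all genes) and above all 3 TF libraries for Gp1ba and Vwf (10.3% of all genes).

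Vwf came nearest to a call, with a log2 difference of 1.48 ± 0.26 (SE; edgeR adjusted p = 0.0993) versus DF and 1.05 ± 0.25 (SE; edgeR adjusted p = 0.217) versus TF. Even TFD replicate 2, at 18.3 CPM, was above the highest DF library (11.6 CPM) and the highest TF library (14.7 CPM). With that library alone the log2 difference from DF was 0.78 ± 0.19 (SE; edgeR adjusted p = 0.0534). For Pf4 it was 0.16 ± 0.33 (SE; edgeR adjusted p = 0.81), so in TFD replicate 2 Pf4 could not be told from DF.

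Levels per kilobase of exon ranked the genes in nearly the same order in each genotype. In WT, Pf4 led with 26.2 ± 5.67 CPM per kb (SD, n = 3), followed by Ppbp with 4.30 ± 1.47, Gp9 with 2.95 ± 0.726 and Vwf with 2.63 ± 0.412 CPM per kb. Mean ± SD overlapped between Ppbp and Gp9 and between Gp9 and Vwf, and Ppbp was above Vwf in each WT library. Gp5 and Treml1, at 1.32 ± 0.602 and 1.20 ± 0.630 CPM per kb, overlapped as well. Gp1bb (0.666 ± 0.208 CPM per kb) and Gp1ba (0.414 ± 0.182 CPM per kb) came last, and their spreads also overlapped. Pf4, Ppbp and Gp9 were the 3 highest in WT, DF and TF, and Gp1ba was the lowest in all 4 genotypes.

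Over the 11 libraries the 8 genes varied together. The Pearson correlation of log2 CPM across libraries had a median of 0.69 over the 28 pairs, from 0.14 to 0.94, and without TFD replicate 1 the median was 0.48, from -0.21 to 0.92. These values describe 11 libraries of 4 genotypes, which share depth and genotype, and were not tested. Outside the list, the 6 genes whose log2 CPM followed the mean of the 8 most closely, among 11180 genes, were Ltbp1 (r = 0.93), Gucy1a3 (0.93), Timp3 (0.92), Rab27b (0.90), Mrvi1 (0.89) and Trpc6 (0.89). Without TFD replicate 1 their values were 0.85, 0.89, 0.82, 0.88, 0.74 and 0.90 in the same order of genes. Ltbp1 encodes a carrier of latent TGF-β, and Gucy1a3 a subunit of the nitric oxide receptor guanylate cyclase. Ltbp1 was between 2.87 and 3.22 CPM in WT, between 1.35 and 1.68 in DF and between 1.92 and 2.05 in TF, and was at 5.88 CPM in TFD replicate 1 and 1.96 CPM in TFD replicate 2. Timp3, an inhibitor of metalloproteinases, was at 19.4 CPM in TFD replicate 1 and 4.90 CPM in TFD replicate 2, and at most 7.43 CPM elsewhere.

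The wider megakaryocyte program was read from 4 further lists, of which 58 of 65 genes were in the table. In DF versus WT, 12 were called higher and 12 lower, with a median log2 fold change of 0.09. In TF versus WT 10 were called higher and 16 lower, with a median of -0.20, and in TFD versus WT 9 higher and 5 lower, with a median of 0.09. The calls over all genes were 21.0% higher and 16.6% lower in DF, 19% and 15.6% in TF, and 14.7% and 11.6% in TFD, so the counts in DF were near those shares. Many of these genes are also used by other BM cells: F13a1, a clotting factor subunit that monocytes express, was called higher in each mutant genotype, by 1.70 ± 0.14 in DF, 1.34 ± 0.14 in TF and 1.54 ± 0.16 in TFD (log2, SE).

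Of the 11 transcription factors, 3 were called higher and 4 lower in DF versus WT. Gfi1b, a repressor required in megakaryocytes and erythroid cells, was at 30.8, 16.1 and 28.0 CPM in WT and at 2.22, 1.54 and 2.08 CPM in DF, with a log2 fold change of -3.70 ± 0.52 (SE; edgeR adjusted p = 0.000185). It was also called lower in TF (-1.48 ± 0.45, edgeR adjusted p = 0.0215) and TFD (-2.57 ± 0.55, edgeR adjusted p = 0.0044), and was at 5.63 CPM in TFD replicate 1 and 2.58 CPM in TFD replicate 2, both below all WT libraries. Gata1 was called lower too, its log2 fold change being -3.87 in DF, -1.30 in TF and -2.05 in TFD. Calls of both genes in TF varied with the libraries. TF replicate 3 lay within the WT range (Gata1 at 24.0 and Gfi1b at 16.9 CPM), and without it the log2 fold changes were -2.0 and -2.29 (edgeR adjusted p = 0.000349 and 0.000306). Neither gene was called in TF without TF replicate 1, TF replicate 2, WT replicate 1 or WT replicate 3 (edgeR adjusted p from 0.0593 to 0.0768). In TFD replicate 1, in which the 8 platelet genes were highest, Gata1 (9.76 CPM) and Gfi1b were below every WT library. Gata2 was called lower in TF alone (log2 fold change -1.35 ± 0.20, edgeR adjusted p = 0.000294), and the difference of TF from DF was also called (0.92 ± 0.20 higher in DF, edgeR adjusted p = 0.0189). Fli1 and Runx1 were not called in any comparison with WT. Nfe2, which drives platelet release, was called higher in DF by 0.52 ± 0.15, and Lyl1 was called higher in DF, TF and TFD by 0.79, 0.70 and 0.69 (log2).

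In the list of 16 receptors and integrins, 2 were called higher and 4 lower in DF, 1 and 4 in TF, and 1 and 1 in TFD. Tbxa2r, the thromboxane receptor, was called lower in DF (-2.09 ± 0.46), and Itga2, a collagen-binding integrin chain, in DF (-1.37 ± 0.36) and TF (-1.89 ± 0.38). Itga2b, the platelet chain of the fibrinogen receptor, passed in no comparison with WT. It was at 36.6, 24.6 and 34.0 CPM in WT and at 52.7 CPM in TFD replicate 1 and 19.3 CPM in TFD replicate 2, on either side of WT. Its partner Itgb3 was called higher in TFD by 0.62 ± 0.20 (log2, SE; edgeR adjusted p = 0.0339). P2rx1, an ATP-gated channel, was called higher in DF by 0.90 ± 0.28, and F2rl3, a thrombin receptor, gave 0.68 ± 0.35, which did not pass.

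Of the 15 genes for granule cargo and platelet formation, 2 were called higher and 2 lower in DF, 3 and 4 in TF, and 2 and 0 in TFD. Mmrn1, a carrier of factor V in alpha granules, was at 12, 7.05 and 12.1 CPM in WT, between 2.30 and 4.75 CPM in DF and between 2.95 and 4.12 CPM in TF. Its log2 fold changes were -1.67 ± 0.43 in DF and -1.62 ± 0.43 in TF (edgeR adjusted p = 0.00851 and 0.011). Rab27b, a GTPase of granule release, was called lower by the same test in DF (-1.21 ± 0.37) and TF (-1.14 ± 0.36). In TFD replicate 1 both were near or above the WT libraries, at 11 CPM for Mmrn1 and 10.5 CPM for Rab27b, and in TFD replicate 2 they were at 2.76 and 3.74 CPM. Serpine2, a protease inhibitor, was not called against WT in any genotype.

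Of 16 genes for cytoskeleton and signaling, 5 were called higher and 2 lower in DF, 4 and 3 in TF, and 4 and 0 in TFD. Gnaz, a platelet G protein subunit, was at 2.13, 1.24 and 1.16 CPM in WT and at 0.318, 0.322 and 0.594 CPM in DF (log2 fold change -1.92 ± 0.67, edgeR adjusted p = 0.0375). Trpc6, a cation channel, was called lower in DF (-1.49 ± 0.37) and TF (-1.22 ± 0.36). Tbxas1, the thromboxane synthase that monocytes also express, was called higher by 1.53, 1.41 and 1.42 (log2) in DF, TF and TFD, and so was Bin2, by 0.78, 0.42 and 0.58. Over the 4 lists, 14 of 58 genes were at least 2-fold higher in TFD replicate 1 than in TFD replicate 2, against 7 of the 8 platelet genes and 3.13% of all genes.

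Markers of other BM cells moved in the same libraries. The summed level of 12 erythroid markers was 1820 to 2380 CPM in WT, 318 to 460 in DF and 658 to 1870 in TF, and was 796 and 633 CPM in TFD replicates 1 and 2. TF replicate 3 stood apart from the other TF libraries, with 1870 CPM against at most 799 for the erythroid markers, 74.7 against at most 22.8 for the B cell markers and 42.6 against at most 19.3 for the T cell markers. In DF all 12 were called lower, against 16.6% of all genes. The summed level of the 8 platelet genes was 41.7 to 59.9 CPM in WT, 21.8 to 28.9 in DF and 27.5 to 38.9 in TF, and was 114 CPM in TFD replicate 1 and 36.2 CPM in TFD replicate 2. The median log2 fold change in DF was -3.93 for the erythroid markers and -1.14 for the platelet genes, a difference between lists that was not tested. In TFD replicate 1 the lists stood on opposite sides of WT. No erythroid marker was at least 2-fold higher in TFD replicate 1 than in TFD replicate 2, and none was highest in TFD replicate 1.

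Endothelial cells also make von Willebrand factor, so their markers were read beside Vwf. Of 12 endothelial markers 7 were in the table, and Tek, Emcn, Plvap, Cldn5 and Robo4 were not analysed here. The sum of the 7, of which Pecam1, Eng and Tie1 are also expressed by blood cells, was 93.1 to 95.2 CPM in WT, 87.5 to 96.0 in DF and 115 to 117 in TF, and was 98.4 and 102 CPM in TFD. Of the 7, Cdh5, the endothelial cadherin (-2.11 ± 0.61, log2, SE; edgeR adjusted p = 0.0158), and Eng (-0.65 ± 0.19, edgeR adjusted p = 0.0184) were called lower in DF than in WT, and Tie1 was called higher (1.63 ± 0.38, edgeR adjusted p = 0.00477). In TF, Tie1 (1.68 ± 0.38) and Egfl7 (0.83 ± 0.25) were called higher by the same test, and in TFD, Tie1 (1.32 ± 0.41) and Flt1 (1.01 ± 0.26). The list thus had no common direction, and the part of endothelial RNA in the lower Vwf of DF was not tested. In TFD replicate 1, where Vwf was highest, 3 of the 7 were above every WT library (Flt1 at 8.88, Tie1 at 18.1 and Egfl7 at 6.88 CPM) and 3 were below every WT library (Cdh5 at 0.813, Eng at 16.4 and Pecam1 at 44.9 CPM).

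Of the 8 basophil and mast cell markers, 4 were at least 2-fold higher in TFD replicate 1 than in TFD replicate 2 and 2 (Mcpt8 and Prss34) had their highest level of all libraries in TFD replicate 1. Their sum was 462 CPM in TFD replicate 1 and 280 in TFD replicate 2, both below the WT range of 555 to 801. This order rested on Hdc, at 138 CPM in TFD replicate 1 and 274 to 494 CPM in WT: the other 7 markers, summed after these values were seen, gave 324 CPM in TFD replicate 1 and 156 CPM in TFD replicate 2, above and below the WT range of 254 to 307. A DF library (DF replicate 3, 335 CPM) was higher than TFD replicate 1, which was not so in the platelet genes, and TF replicates 1 and 3 (134 and 145 CPM) were lower than TFD replicate 2. Of the 7 markers, only Mcpt8 and Prss34 were above every WT library in TFD replicate 1. Cpa3 (31.6 CPM), Ms4a2 (19.9 CPM), Fcer1a (14.4 CPM) and Gata2 (12.5 CPM) were below every WT library there, and Cd200r3 (8.0 CPM) was within the WT range. For the 9 neutrophil markers 3 of 9 passed the same ratio, and their sum was 47500 and 24400 CPM, both below the WT range of 50400 to 62900. Monocyte markers gave 0 of 7, stem and progenitor markers 1 of 7, T cell markers 1 of 5 and B cell markers 1 of 7. Their part in the gap between the TFD libraries was not tested. Against WT, B cell markers were lower and monocyte markers higher in each mutant genotype, with all 7 of each called (of all genes, 11.6% to 16.6% were called lower and 14.7% to 21.0% higher).

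**Figure D4:**
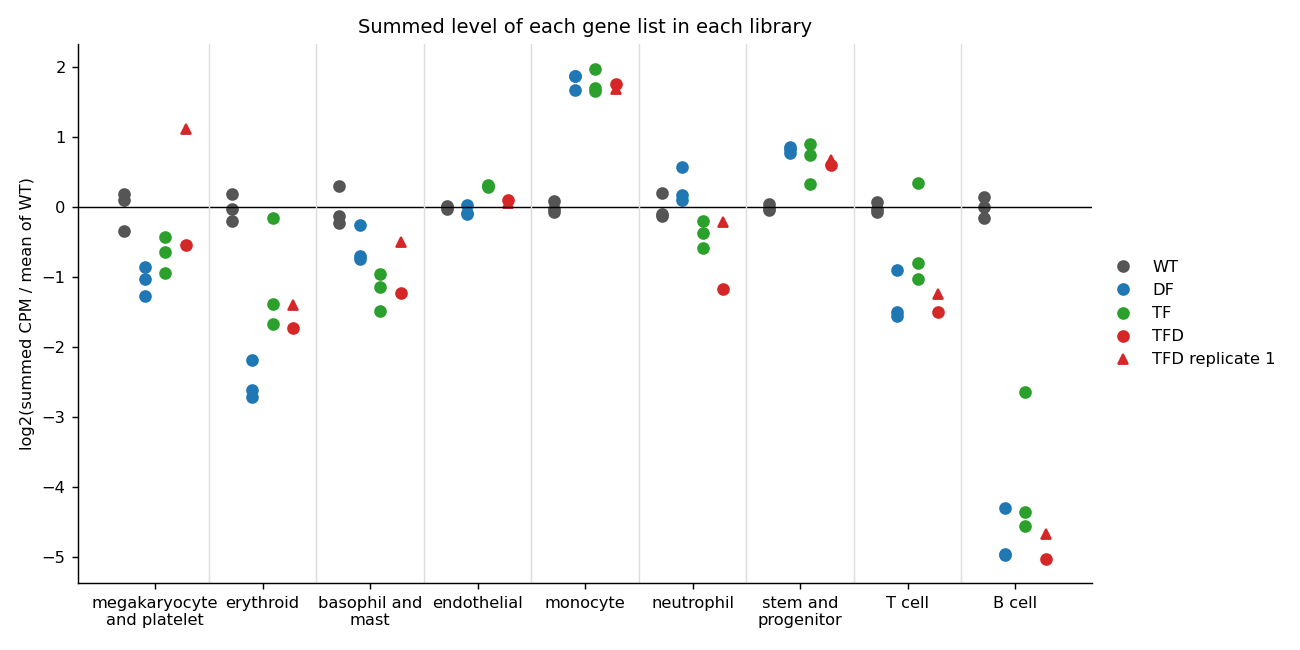
Summed CPM of each gene list in each library, as log2 of its ratio to the WT mean, by genotype, with a triangle for TFD replicate 1. For the platelet genes TFD replicate 1 lies above all WT libraries (1.12) and TFD replicate 2 below them (-0.54). The sum of the basophil and mast cell markers without Hdc (not drawn) did the same. Of those markers only Mcpt8 and Prss34 were above all WT libraries in TFD replicate 1.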

How the data were processed

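RNA-seq had been run on BM RNA of WT, DF, TF and TFD mice, and 11 libraries were grouped by their labels. The authors aligned reads to mm10 with STAR, kept unique alignments and counted them on refGene genes with featureCounts. Versions of these tools, and whether counting used strand, are not given in the sources used here. The file that the authors deposited gives raw counts for 12199 genes, a gene length in bases, and log2 CPM values that could be recomputed with edgeR to within 5e-09.

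A gene was tested if over 3 libraries exceeded 0.5 CPM, which removed 24. Counts were tested in R 4.3.3 with edgeR 4.0.16 (TMM factors, quasi-likelihood F test, a mean for each genotype in 1 model), with Benjamini-Hochberg adjustment over 12175 genes. CPM values use TMM-scaled totals, and intervals on ratios cover counting error only. Where nothing in the labels says otherwise each library was taken as 1 mouse, and p values measure the spread between libraries. The procedures were tested on simulated counts. The alternatives were DESeq2 1.42.0, limma 3.58.1 (voom), RLE factors, library totals, no filter, only the groups compared, the replicate block and each library left out. A term for at least 10000 Xist counts and a fit of libraries below that number were chosen after seeing the data. Plots used matplotlib 3.10.9.

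The genes and lists were chosen with earlier results of these data known. Named beside the 8 genes were Gata1, Gata2, Fli1, Nfe2, Gfi1b, Runx1, Itga2b, Itgb3, the 2 highest and 2 lowest genes of each wider list by log2 fold change in DF versus WT, and the 6 genes most correlated with the mean log2 CPM of the 8 among genes whose own mean was at least 1. Marker genes and Sept5 were named for the checks they serve, and Hdc, Mcpt8, Prss34, Cpa3, Ms4a2, Fcer1a and Cd200r3 after their values were seen. A gene that the rule also names is not reported here.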

Additional observations from a re-analysis of the deposited data

How the results depend on the processing

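The 8 genes were lower in DF than in WT in every setting tried, and Vwf was called there in all of them. In DF versus WT, 4 of the 8 genes were called, 2 with limma voom, 5 with only the groups compared or with the term for high Xist counts (Treml1 was added), and 1 to 4 with 1 library left out. Of all genes, 16.6%, 19.7% and 15.2% were called lower in those 3 settings and 12.1% to 19% with 1 library left out. In TF versus WT, 1 was called, 2 when only the groups compared were fitted, and 0 to 3 with 1 library left out, where 16.4% and 9.59% to 17.3% of all genes were called lower. In TFD versus WT, 1 was called, 0 with limma voom, 0 with the replicate block, 3 with only the libraries of few Xist counts, and 0 to 3 with 1 library left out. In TFD versus DF, 0 were called, 4 with DESeq2, 1 with only the groups compared, 1 with the replicate block (Vwf), 5 with few Xist counts (1.16% of all genes were called higher), and 0 to 3 with 1 library left out. In TFD versus TF, 0 were called, 1 with DESeq2, 3 with few Xist counts (0.0739% of all genes), and 0 to 2 with 1 library left out. The cause of these shifts was not tested, except that the fits with few Xist counts hold TFD replicate 1 as the only TFD library. Whether the replicate numbers pair the libraries could not be settled. Between genotypes, correlations of deviations ran from -0.299 to 0.247 for same-numbered libraries and from -0.225 to 0.299 for other numbers. With 2 TFD libraries their deviations mirror each other, which limits this check.

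Signs turned as follows. In TF versus WT, Ppbp was at -0.08 with the term for high Xist counts and ranged from -0.14 to 0.35 with 1 library left out, and Gp1ba was at 0.15 with few Xist counts in place of -0.43. In DF versus TF, Gp9 was at -0.06 with library totals, -0.04 with limma voom, -0.10 with the Xist term and -0.05 with few Xist counts, and ranged from -0.16 to 0.26 with 1 library left out. In the same comparison Treml1 was at 0.06 with limma voom and ranged from -0.62 to 0.49, and Gp1bb ranged from -0.40 to 0.27. In TFD versus WT, Gp5 was at -0.04 with limma voom and Gp9 at 0.43 with few Xist counts. With 1 library left out, the values in TFD versus WT ranged from -1.0 to 1.07 for Pf4, -0.81 to 1.29 for Gp1bb, -1.25 to 0.76 for Gp5, -1.40 to 0.35 for Gp9, -0.35 to 0.81 for Vwf and -0.94 to 0.83 for Treml1. In TFD versus DF they ranged from -0.44 to 1.68 for Gp1bb and -0.89 to 0.88 for Gp9, and in TFD versus TF from -0.15 to 1.93 for Pf4, -0.44 to 1.65 for Gp1bb, -0.16 to 1.84 for Gp5 and -0.86 to 0.89 for Gp9.

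Only 2 TFD libraries were analysed, and no setting separates their gap from a difference between mice. Genes with few counts per library, such as Gp1ba, Gp1bb and Treml1, have standard errors near 0.5 or above on the log2 scale. With library totals in place of TMM, genes called higher made up 42.3% of all calls in DF versus WT in place of 55.9%, and 13.9% in DF versus TF in place of 28.1%. Over all genes, TFD versus DF gave 0 calls in the main analysis, 155 higher and 103 lower with DESeq2, 109 and 26 with only the groups compared, and 34 and 8 with the replicate block. In TFD versus TF, 1 higher and 1 lower became 22 and 109 with DESeq2. No setting moved the median log2 fold change of all genes by more than 0.1.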
